A study of Saccharomyces cerevisiae with 10 samples.

Results

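The 56 genes that encode the proteins of the cytosolic small ribosomal subunit of budding yeast (RPS genes) were taken as given, by systematic name, and every one of them was found among the 10740 features that had reads in a table of RNA densities. They encode 32 proteins. The single-copy genes number 8 and the other genes form 24 pairs of paralogs, written A and B. RNA was measured in 5 groups of 2 biological replicates each of Saccharomyces cerevisiae, all MATa haploids grown to mid-log phase in the rich medium YPD. The xrn1 group lacks the gene of the cytoplasmic 5′ to 3′ exoribonuclease Xrn1 (xrn1Δ::kanMX4) in the laboratory strain BY4741, which carries his3Δ1, leu2Δ0, met15Δ0 and ura3Δ0. The dbp2 group lacks the gene of the RNA helicase Dbp2 (dbp2Δ::KanMX6). Its strain field reads BY4741, but its genotype is given as his3Δ0, leu2Δ0, met-, lys? and ura3Δ0. Both were set against WT, the BY4741 strain itself. In the tet-MTR4-Dox group the gene of Mtr4, a helicase that works with the exosome of the nucleus, is driven by a promoter that is off in doxycycline (kanMX6-tetOFF::MTR4). Its control is WT-Dox. Both of these are BMA64-1A strains that carry can1-100, trp1Δ2, ura3-1, ade2-1, his3-11,15 and a mutant allele of LEU2, and both received doxycycline (10 µg/mL, 6 hours). Total RNA freed of ribosomal RNA was sequenced with strand information.

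The small subunit holds the messenger RNA and the decoding centre of the ribosome, and its proteins assemble with the 18S ribosomal RNA in the nucleolus, nucleus and cytoplasm. In growing yeast the mRNAs of ribosomal proteins are among the most abundant of the cell. Their genes are transcribed by RNA polymerase II under factors such as Rap1, Fhl1, Ifh1 and Sfp1, many carry an intron, which is rare among yeast genes at large, and many survive as duplicate copies from an ancient doubling of the genome. The copies encode the same or nearly the same protein, and for some pairs one copy is known to be held low through its intron or through the turnover of its mRNA.

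Depth on features was 16.0 to 33.6 M reads a library, of which 1.35% to 3.14% fell on ERCC spike-in RNAs, and the RPS genes held between 848297 and 2142523 reads in a library. The sparsest gene of the set still had 1744 reads in its sparsest library. A density is reads per base of the feature, in arbitrary units, and the scale of each library follows its spike-in reads, as inferred from the deposited values. Differences were read on 2 scales with limma over all 9666 features kept: per spike-in, as deposited, and relative, after each library was divided by the density of its median protein-coding gene. The median of all features stood at log2 1.90 in xrn1, 0.94 in dbp2 and 1.36 in tet-MTR4-Dox per spike-in, and at -0.02, 0.19 and 0.55 on the relative scale. The step at which spike-in RNA was added is not given in the sources used here, so values per spike-in cannot be read as values per cell. XRN1 RNA was 0.102 and 0.106 in xrn1 against 2.49 and 2.28 in WT, DBP2 RNA 0.00313 and 0.00326 in dbp2 against 3.49 and 3.41 in WT, and MTR4 RNA 0.429 and 0.469 in tet-MTR4-Dox against 1.49 and 1.30 in WT-Dox. Markers outside the targeted genes also differed. LYS2 RNA was 0.000502 and 0.000349 in dbp2 against 1.10 and 0.999 in WT, MET17 RNA was 1.75 and 1.64 in dbp2 against 0.00125 and 0.000477 in WT, and TRP1 RNA was 0.129 and 0.128 in tet-MTR4-Dox against 0 and 0.000690 in WT-Dox. The part of these strain differences in the results below cannot be told apart from that of DBP2 or MTR4.

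The copies of a pair differ enough in sequence, as a rule, for reads to be told apart, and a few do not. Proteins were identical in 10 of the 24 pairs and at least 87.9% identical in all. Coding sequences were 84.3% to 99.2% identical. Of all 50-base windows of a gene, a median of 0.446% occur elsewhere in the R64 genome, 26 genes have none, and 6 genes have more than 20%, among them both copies of RPS4 and RPS6. How the authors counted reads that map to both copies is not given in the sources used here, so values of these 6 genes are uncertain copy by copy. The coding sequences of RPS27A (YKL156W, chrXI:158613-159212, plus strand) and RPS27B (YHR021C, chrVIII:147871-148669, minus strand), the least alike at the base level, are shown in whole. Both are from the RefSeq R64 genome, 5′ to 3′ with introns removed, and capitals mark bases that differ from the other copy.
RPS27A: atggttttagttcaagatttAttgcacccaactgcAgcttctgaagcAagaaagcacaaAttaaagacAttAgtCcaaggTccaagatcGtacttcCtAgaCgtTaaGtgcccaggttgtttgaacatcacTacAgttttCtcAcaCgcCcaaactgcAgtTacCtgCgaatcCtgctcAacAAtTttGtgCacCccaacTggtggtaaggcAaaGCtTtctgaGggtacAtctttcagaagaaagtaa
RPS27B: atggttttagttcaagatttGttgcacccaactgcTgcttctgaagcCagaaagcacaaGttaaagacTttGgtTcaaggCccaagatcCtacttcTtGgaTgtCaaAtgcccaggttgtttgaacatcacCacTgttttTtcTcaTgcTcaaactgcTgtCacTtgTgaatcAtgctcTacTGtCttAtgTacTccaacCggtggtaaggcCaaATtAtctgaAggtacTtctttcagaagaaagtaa
Between the RPS27 copies 39 of 249 bases differ, spread along the gene.

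Introns interrupt the coding sequence of 36 of the genes, 256 to 551 bases long with a median of 408.5. The feature lengths recovered from the deposited densities were at least the distance from the start to the stop codon in all 56 genes. Introns were therefore taken to lie inside the features. That is an inference from length, to which bases outside the coding sequence also add. On this reading spliced and unspliced RNA cannot be told apart. A feature can also reach well past the coding bases: that of RPS28B (YLR264W) was 1305 bases for 204 coding bases. Among the 36 introns, 24 begin with GTATGT, 9 with GTACGT and 3 with GTATGA. Over the 281 introns of nuclear coding sequences in the genome, 73.0% begin with GTATGT and 9.25% with GTACGT. The branch-point letters TACTAAC occur in 33 of the 36 and in 82.6% of all 281, searched on the sense strand only. RPS9A, RPS9B and RPS21A lack these letters. The 5′ splice sites of the RPS9, RPS14 and RPS21 copies are shown, pairs in which at least 1 copy carries GTACGT and whose ratio was called in xrn1, as the last 10 exon and the first 20 intron bases, with the first 6 intron bases in capitals.
RPS9A (YPL081W, chrXVI:404947-404976, plus strand): aacatgccaaGTACGTcgttaatcttctcc
RPS9B (YBR189W, chrII:604505-604534, plus strand): acaatgccaaGTACGTattagactatatcg
RPS14A (YCR031C, chrIII:178194-178223, minus strand): gccatgtctaGTATGTttaatcacatagtg
RPS14B (YJL191W, chrX:73787-73816, plus strand): atggctaacgGTACGTgaaaggggtgatat
RPS21A (YKR057W, chrXI:551671-551700, plus strand): gggccaattaGTATGTtcgagaaatctata
RPS21B (YJL136C, chrX:157230-157259, minus strand): gggtcaattaGTACGTaaattatagcagat
Both RPS9 copies carry GTACGT, while in the RPS14 and RPS21 pairs the copies differ at this site. In RPS14 the copy with GTACGT is RPS14B, which rose in xrn1, and in RPS21 it is RPS21B, while RPS21A rose more there. A match or mismatch of letters is a description only.

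The genes differed widely in level. Mean densities per feature base ran over a 22.5-fold range in xrn1, a 74.2-fold range in dbp2, an 80.2-fold range in WT, a 24.2-fold range in tet-MTR4-Dox and a 47.1-fold range in WT-Dox. RPS9A was the lowest in every group, at 5.62 and 5.32 in xrn1 libraries, 1.52 and 1.49 in dbp2 libraries, 1.23 and 1.22 in WT, 4.27 and 4.03 in tet-MTR4-Dox and 2.02 and 1.84 in WT-Dox. The highest was RPS31 in xrn1, WT and WT-Dox and RPS12 in dbp2 and tet-MTR4-Dox. RPS31 (YLR167W), which encodes ubiquitin fused to a ribosomal protein, stood at 123 and 123 in xrn1 libraries, 107 and 107 in dbp2 libraries, 101 and 95.5 in WT, 79.7 and 78.8 in tet-MTR4-Dox and 93.6 and 88.2 in WT-Dox. RPS12 (YOR369C) stood at 125 and 118, 114 and 109, 81.7 and 81.5, 98.6 and 103, and 85.0 and 81.7 in the same groups, so in xrn1 its libraries lay on both sides of those of RPS31. When the copies of a pair were added and densities taken per exonic base, the spread over the 32 proteins was far smaller: 5.11-fold in xrn1, 2.89-fold in dbp2, 4.94-fold in WT, 3.71-fold in tet-MTR4-Dox and 4.51-fold in WT-Dox. RPS29 was the lowest of the 32 in every group on this measure. Bases outside the coding sequence stay in the length, and the RPS29A and RPS29B features were 937 and 873 bases for 171 coding bases. Whether feature length sets the rank of RPS29 was not tested.

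**Figure D1:**
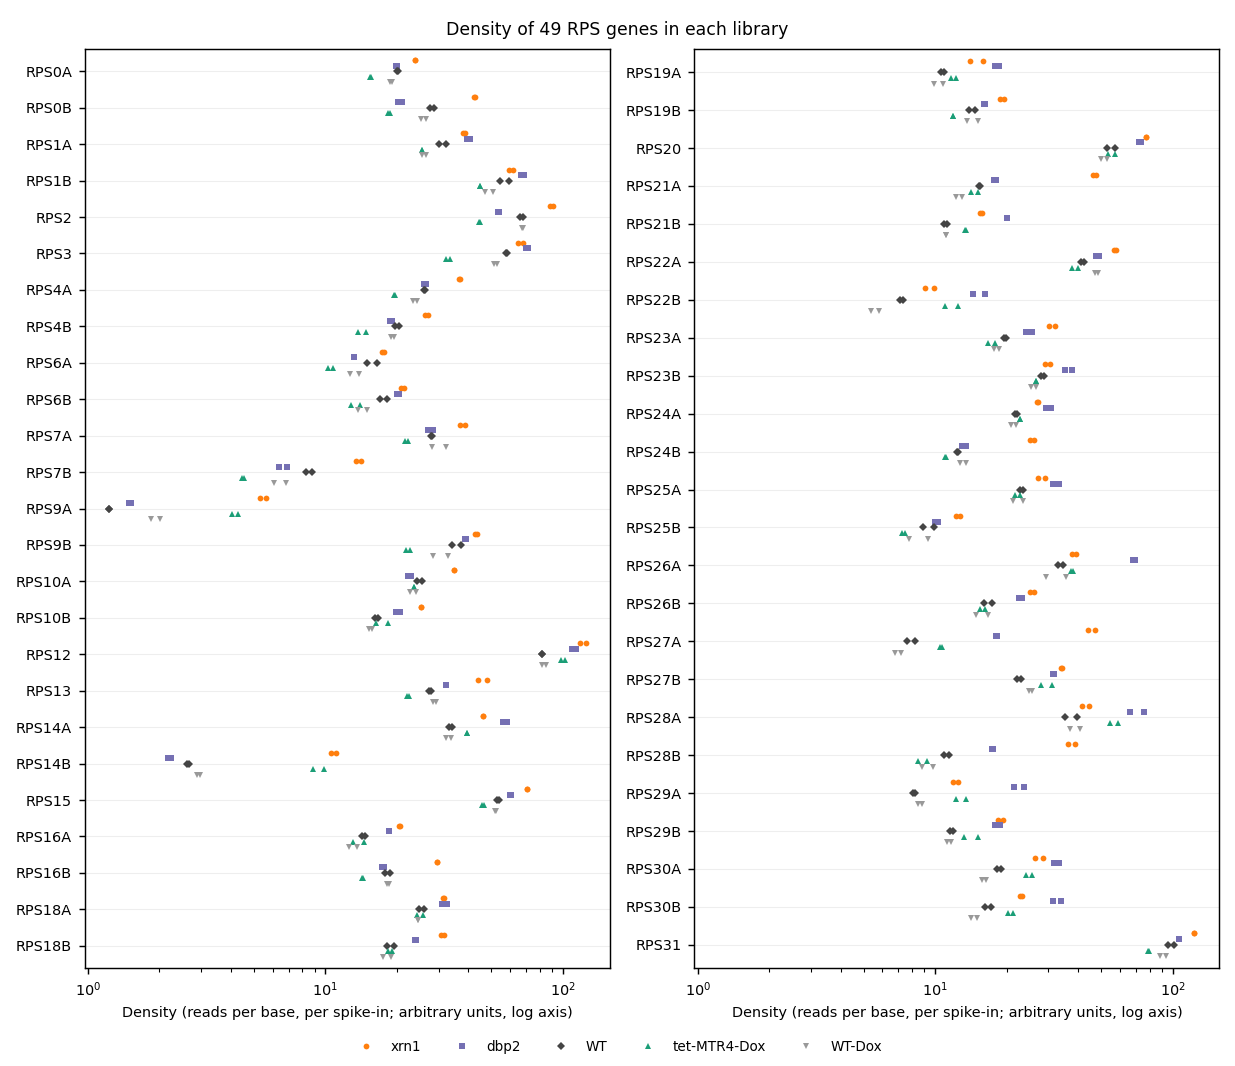
Density of 49 RPS genes on a log axis, with a point for each of the 10 libraries, colours and symbols giving the group. Replicates lie close together, RPS9A is the lowest gene in all groups, and RPS14B, RPS21A, RPS27A and RPS28B show xrn1 libraries far above those of WT.

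In cells without Xrn1, RPS RNA rose per spike-in, and by less than most RNAs. The summed density of the set was 2065 ± 36 in xrn1 and 1469 ± 33 in WT (SD, n = 2 each), and 51 of the 56 genes rose with none falling (limma, adjusted p under 0.05), against 95.0% of all features called higher and 0.869% called lower. The median gene of the set was 1.39-fold higher (log2 0.48), the median protein-coding gene 3.74-fold. Relative to the median protein-coding gene the direction turned: 53 of the 56 fell and only RPS27A rose, with a median of log2 -1.59, against 35.5% of features called higher and 38.6% called lower. The 81 genes of the large subunit and stalk (RPL and RPP) gave 76 higher and 0 lower per spike-in, median log2 0.51, and 1 higher and 80 lower on the relative scale, median log2 -1.56. Both sets of proteins thus had nearly the same median, and no test of a difference was made. The 22 genes of the head of the subunit and the 34 of its body had the same median log2 per spike-in, 0.48. The 36 genes with an intron had 0.50 and the 20 without 0.41.

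A handful of genes stood apart from the set in xrn1. RPS27A (YKL156W), a zinc-binding protein of the subunit body, had densities of 47.1 and 44.1 in xrn1 against 7.62 and 8.196 in WT. Both xrn1 libraries lay far above both WT libraries, a 5.76-fold rise (log2 2.53 ± 0.06 SE, limma adjusted p = 5.8e-11), and it stayed higher on the relative scale (log2 0.45, adjusted p = 0.00013). RPS9A (YPL081W), a protein of the body that helps keep decoding accurate, had 5.62 and 5.32 in xrn1 against 1.23 and 1.22 in WT, 4.44-fold higher (log2 2.15 ± 0.06, limma adjusted p = 1.1e-10). RPS14B (YJL191W) had 11.1 and 10.6 in xrn1 against 2.63 and 2.66 in WT, 4.10-fold higher (log2 2.04 ± 0.06, limma adjusted p = 1.4e-10). Its protein sits near the platform and contacts the 3′ part of 18S rRNA. On the relative scale RPS9A was at log2 0.08 and RPS14B at -0.04, neither called. RPS28B (YLR264W), whose mRNA is known to be held down through a site in its 3′ untranslated region that binds the decapping enhancer Edc3, had 38.9 and 36.4 in xrn1 against 11.5 and 10.9 in WT, 3.37-fold higher (log2 1.75 ± 0.07, limma adjusted p = 1e-09). RPS21A (YKR057W) had 47.8 and 46.2 in xrn1 against 15.4 and 15.2 in WT, 3.07-fold higher (log2 1.62 ± 0.06, limma adjusted p = 4.8e-10), and RPS24B (YIL069C) 26.1 and 25.1 against 12.5 and 12.4, 2.06-fold higher. Relative to the median protein-coding gene, RPS28B was at log2 -0.32, RPS21A at -0.46 and RPS24B at -1.03, all called lower. In each of these 6 genes the groups did not overlap, but that does not set them apart. Both xrn1 libraries lay above both WT libraries in 55 RPS genes, and the groups overlapped in 1. The share of all features without overlap is not given here. What set the 6 apart was the size of the rise: the other 50 RPS genes lay between log2 0.07 and 0.74 per spike-in, with RPS13 at 0.74.

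At the other end of the xrn1 order stood RPS23B (YPR132W), part of the decoding centre, with 30.5 and 29.2 in xrn1 against 28.8 and 28.1 in WT (log2 0.07, limma adjusted p = 0.27). RPS1B was at log2 0.09, not called, and RPS6A at 0.15 was called (adjusted p = 0.047) but not when 1 library was left out, with adjusted p up to 0.32. The single-copy genes all rose per spike-in, from log2 0.19 for RPS3 to 0.74 for RPS13, and all fell on the relative scale, from -1.34 for RPS13 to -1.88 for RPS3. RPS3, a protein of the mRNA entry channel, lost its per-spike-in call without WT replicate 2 or xrn1 replicate 1 (adjusted p = 0.063 and 0.093).

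**Figure D2:**
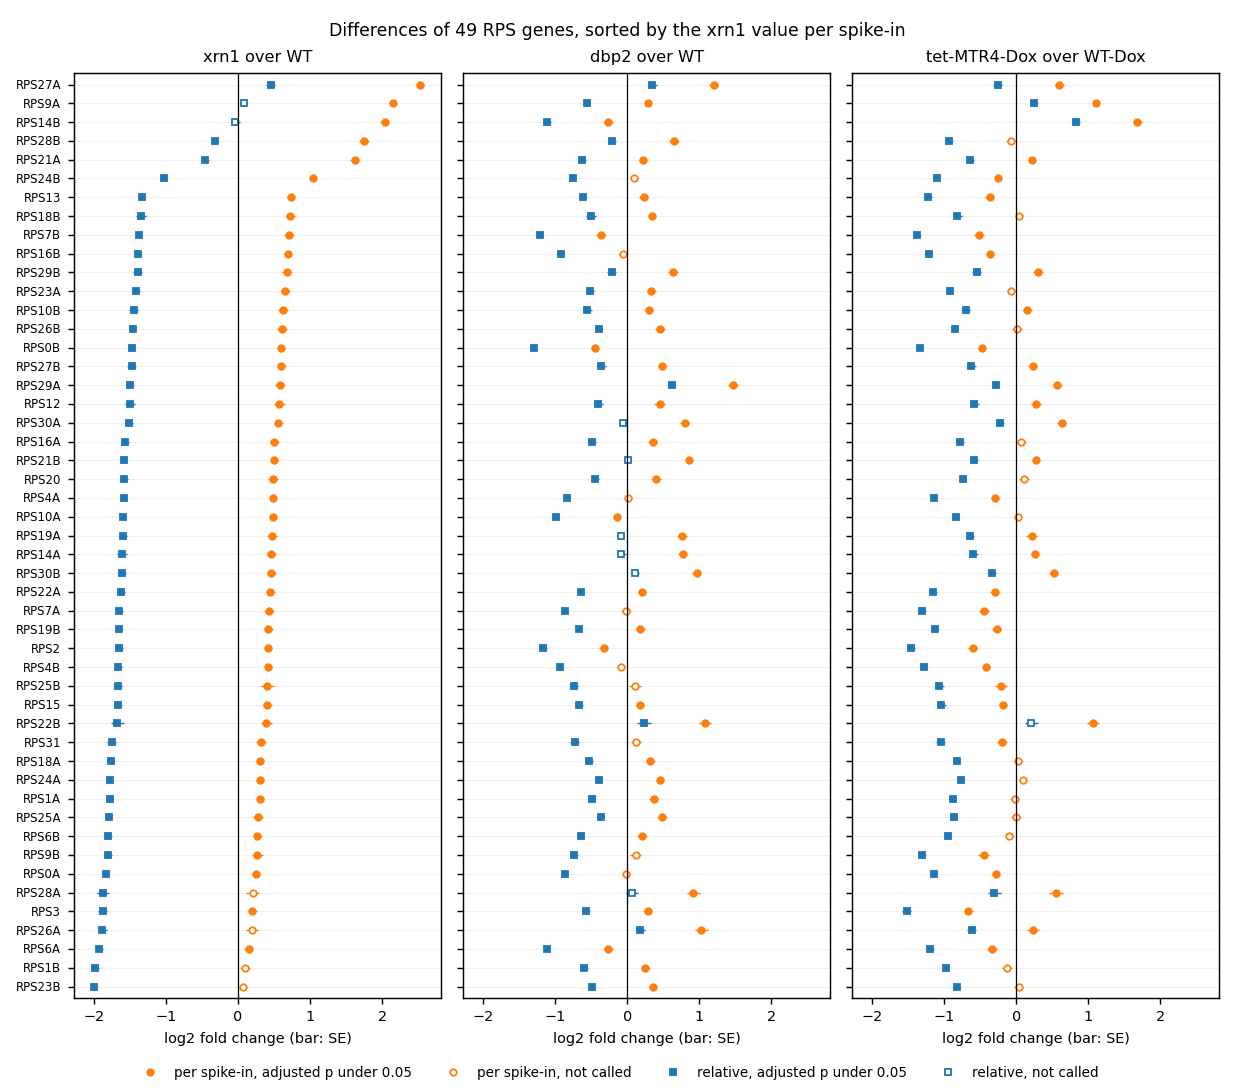
Log2 fold change of 49 RPS genes in xrn1 over WT, dbp2 over WT and tet-MTR4-Dox over WT-Dox, per spike-in (circles) and relative to the median protein-coding gene (squares), with SE bars and open symbols where not called. Nearly all circles lie right of 0 in xrn1 and around 0 in tet-MTR4-Dox, while squares lie left of 0 except for RPS27A, RPS9A, RPS14B, RPS22B, RPS29A and a few near 0.

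In cells without Dbp2 most RPS genes rose per spike-in and 7 fell. The summed density was 1816 ± 40 in dbp2 and 1469 ± 33 in WT (SD, n = 2 each). Per spike-in 37 genes rose and 7 fell, median log2 0.25 or 1.19-fold, against 84.8% of features called higher and 5.32% lower. Relative to the median protein-coding gene, 4 rose and 46 fell, median log2 -0.60, against 43.4% of features called higher and 28.7% lower. The RPL and RPP genes gave 55 higher and 11 lower per spike-in with a median log2 of 0.40, and 4 higher and 68 lower relative with a median of -0.45. Of the 22 head genes 16 rose and 1 fell per spike-in, median log2 0.31, and of the 34 body genes 21 rose and 6 fell, median 0.23. This comparison shares its WT libraries with that of xrn1.

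RPS29A (YLR388W), a small zinc-binding protein of the head, led in dbp2 with 23.7 and 21.6 against 8.26 and 8.07 in WT. Both dbp2 libraries lay above both WT libraries, 2.77-fold (log2 1.47 ± 0.07 SE, limma adjusted p = 2.2e-08), and the gene was also higher on the relative scale (log2 0.62, adjusted p = 6.7e-06). Such a separation was common in the set: dbp2 lay above WT without overlap in 42 RPS genes and below it in 9, and the groups overlapped in 5. The share of all features without overlap was not counted, so these counts do not set the RPS genes apart. RPS27A had 18.2 and 18.1 in dbp2 against 7.62 and 8.196 in WT, 2.30-fold higher (log2 1.20 ± 0.06, limma adjusted p = 3.5e-08; relative log2 0.35, or 0.10 and not called when libraries were rescaled on all features). RPS26A (YGL189C), a protein at the mRNA exit channel, had 69.6 and 68.3 in dbp2 against 34.5 and 33.0 in WT, 2.04-fold higher per spike-in (log2 1.03 ± 0.085, limma adjusted p = 1.1e-06). Its relative value of log2 0.18 was called (adjusted p = 0.023), lost the call when any 1 of the 4 libraries was left out (adjusted p 0.062 to 0.10), and turned to -0.07 after rescaling on all features. RPS30A and RPS30B, which encode the same small protein, were at log2 0.80 and 0.96 per spike-in, and RPS28A at 0.92. None of these 3 was called on the relative scale. RPS30A over RPS30B was 0.976 and 1.003 in dbp2 against 1.17 and 1.06 in WT, so both dbp2 libraries lay below both WT libraries, but the change was not called (log2 -0.17 ± 0.07 SE, limma adjusted p = 0.056).

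The 7 genes that fell per spike-in in dbp2 included RPS0B, RPS7B, RPS2, RPS14B, RPS6A and RPS10A. RPS0B (YLR048W), a protein of the body needed for late maturation of the subunit, had 21.0 and 20.3 in dbp2 against 28.7 and 27.5 in WT, which was 0.733 of WT (log2 -0.45 ± 0.06 SE, limma adjusted p = 2.3e-05; relative log2 -1.30). RPS2 (YGL123W), a single-copy protein of the mRNA entry, had 53.9 and 53.3 in dbp2 against 68.2 and 66.0 in WT, 0.799 of WT (log2 -0.32 ± 0.06, limma adjusted p = 0.00048; relative log2 -1.17). RPS7B was at log2 -0.36, RPS14B at -0.26 and RPS6A at -0.26. RPS10A at -0.14 lost its call when 1 library was left out (adjusted p up to 0.21). Other single-copy genes ran from RPS12 at log2 0.45, RPS20 at 0.40, RPS3 at 0.28, RPS13 at 0.23 and RPS15 at 0.18, all called, to RPS31 at 0.12, not called. RPS15 lost its call without WT replicate 2 or dbp2 replicate 2.

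In cells depleted of Mtr4 the summed density of the set stood near its control per spike-in, while single genes moved both ways. The summed density was 1349 ± 8 in tet-MTR4-Dox and 1405 ± 54 in WT-Dox (SD, n = 2 each). Per spike-in 17 genes rose and 22 fell, median log2 -0.05, against 91.3% of features called higher and 3.27% lower. On the relative scale 2 rose and 53 fell, median log2 -0.90, against 62.2% of features called higher and 24.7% lower, and after rescaling on all features none rose and 55 fell. The RPL and RPP genes gave 25 higher and 15 lower per spike-in, median log2 0.02, and 2 higher and 77 lower relative, median -0.83. Of the 8 single-copy genes 6 fell per spike-in, 1 rose and 1 was not called.

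The genes that rose most were RPS14B, RPS9A and RPS22B. RPS14B had 9.89 and 8.89 in tet-MTR4-Dox against 2.97 and 2.87 in WT-Dox, 3.21-fold higher (log2 1.68 ± 0.06 SE, limma adjusted p = 1.1e-09). RPS9A had 4.27 and 4.03 in tet-MTR4-Dox against 2.02 and 1.84 in WT-Dox, 2.15-fold higher (log2 1.10 ± 0.06, limma adjusted p = 1.8e-08). Relative to the median protein-coding gene, both stayed higher, at log2 0.83 and 0.25, but rescaling on all features put RPS14B at -0.04, not called, and RPS9A at -0.61, called lower. Groups did not overlap for either gene, which was common in the set. Both tet-MTR4-Dox libraries lay above both WT-Dox libraries in 19 RPS genes and below both in 24, and the groups overlapped in 13. How many of all features lay apart in this way was not counted, so these counts do not set the RPS genes apart. RPS30A at log2 0.63, RPS27A at 0.60, RPS29A at 0.57, RPS28A at 0.55 and RPS30B at 0.52 rose per spike-in and fell on the relative scale.

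Among the genes that fell most were RPS3, RPS2 and RPS7B. RPS3 (YNL178W) had 33.6 and 32.1 in tet-MTR4-Dox against 53.0 and 51.5 in WT-Dox, 0.629 of the control (log2 -0.67 ± 0.06 SE, limma adjusted p = 1.5e-06; relative log2 -1.52). RPS2 had 44.6 and 44.4 in tet-MTR4-Dox against 68.3 and 67.2 in WT-Dox, 0.657 of the control (log2 -0.61 ± 0.06, limma adjusted p = 2.7e-06; relative log2 -1.46). In both genes, as in the 24 RPS genes counted above, each tet-MTR4-Dox library lay below both WT-Dox libraries. RPS7B was at log2 -0.52. RPS13 (-0.37), RPS31 (-0.20) and RPS15 (-0.18) fell among the single-copy genes, RPS20 (0.11) was not called, and RPS12 (0.27) rose. The calls of RPS12, RPS15 and RPS31 were lost when only these 2 groups were fitted (adjusted p 0.052, 0.10 and 0.13).

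The ratio of the copies of a pair in one library is free of the scaling of that library. It was tested for 409 pairs of the genome that were reciprocal best protein matches with both copies kept, a test added after the data were seen. In xrn1 the ratio changed in 16 of the 24 RPS pairs, against 78.0% of all pairs. In dbp2 it changed in 19, against 81.9%, and in tet-MTR4-Dox in 14, against 74.1%. The median size of the change was log2 0.24, 0.39 and 0.23 in the RPS pairs and 0.59, 0.52 and 0.50 over all pairs, taking xrn1 first, then dbp2, then tet-MTR4-Dox. A change over log2 1 in either direction was seen in 5 RPS pairs in xrn1, 1 in dbp2 and 3 in tet-MTR4-Dox. The share of all 409 pairs with such a change was not counted, so these counts do not set the RPS pairs apart. Over the 3 comparisons 9 pairs were called in all 3, 9 in 2, 4 in 1 and 2 (RPS4 and RPS30) in none. Per feature base, the copy with more RNA was the A copy in 15 pairs and the B copy in 9 pairs in WT and in WT-Dox alike. On this measure 9 pairs changed order, or had replicates on both sides of it, in at least 1 other group. Per exonic base the order can differ: the mean RPS21A over RPS21B ratio was then 1.15 in WT and 0.949 in WT-Dox.

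**Figure D3:**
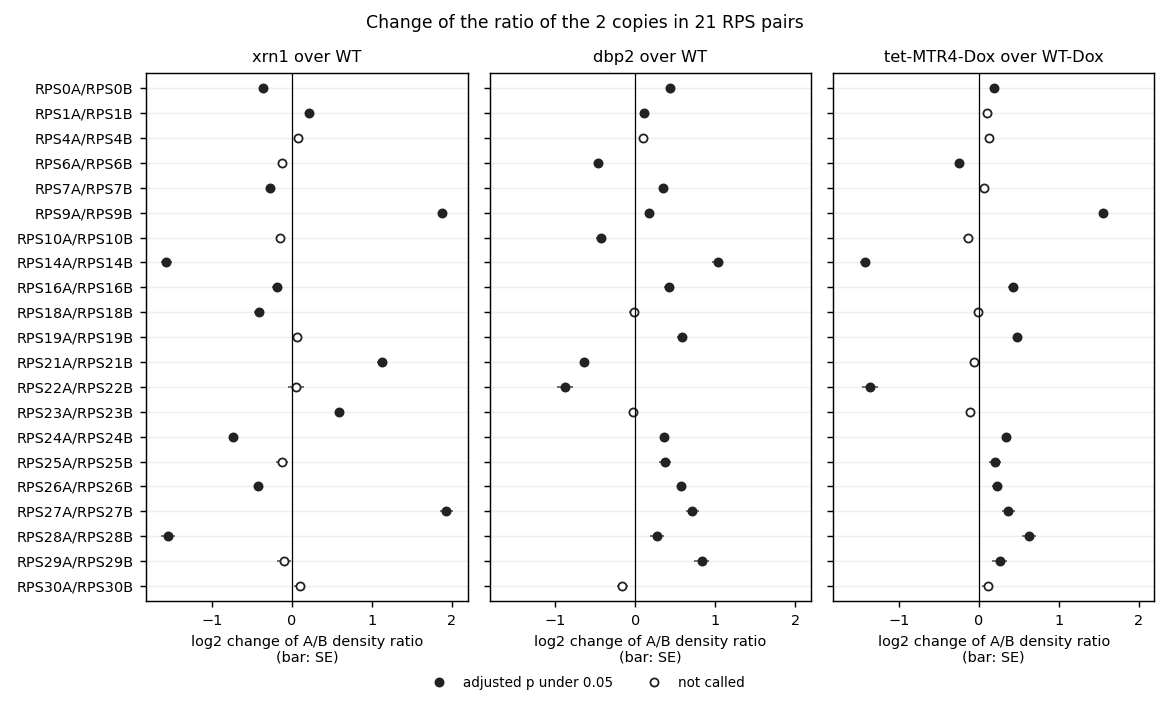
Change of the log2 ratio of A to B copy in 21 RPS pairs for xrn1 over WT, dbp2 over WT and tet-MTR4-Dox over WT-Dox, with SE bars; filled points have an adjusted p under 0.05. The RPS9, RPS14, RPS21, RPS27 and RPS28 pairs lie beyond 1 in xrn1, and the RPS9, RPS14 and RPS22 pairs do so in tet-MTR4-Dox.

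The RPS27 ratio moved furthest in xrn1. RPS27A over RPS27B was 1.39 and 1.29 in xrn1 against 0.333 and 0.372 in WT, so that the minor copy became the major one per feature base (log2 change 1.93 ± 0.08 SE, limma adjusted over the 409 pairs). Per exonic base the mean ratio was 1.02 in xrn1 and 0.267 in WT. In dbp2 it was 0.575 and 0.579 against the same WT libraries (0.71 ± 0.08), and in tet-MTR4-Dox 0.380 and 0.336 against 0.289 and 0.265 in WT-Dox (0.37 ± 0.08). All 3 changes were called, and in each the mutant libraries lay above their controls.

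RPS9A over RPS9B, a pair in which the A copy is far lower, was 0.129 and 0.125 in xrn1 libraries, 0.0393 and 0.0382 in dbp2 libraries and 0.0330 and 0.0357 in WT libraries, and 0.188 and 0.183 in tet-MTR4-Dox against 0.0615 and 0.0648 in WT-Dox. The log2 changes were 1.88, 0.17 and 1.55 (SE 0.055 each). The dbp2 change was called but not without WT replicate 1 or dbp2 replicate 1 (adjusted p = 0.13 and 0.091). RPS9B itself was at log2 0.27 per spike-in in xrn1 and -0.45 in tet-MTR4-Dox, so in tet-MTR4-Dox the copies moved in opposite directions.

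RPS14A over RPS14B, where the B copy is low and its splicing is known to be repressed by the Rps14 protein, was 4.16 and 4.37 in xrn1 libraries, 26.0 and 25.9 in dbp2 libraries and 13.0 and 12.4 in WT libraries, and 3.998 and 4.43 in tet-MTR4-Dox against 10.8 and 11.8 in WT-Dox. The ratio fell in xrn1 (log2 -1.57 ± 0.07 SE) and tet-MTR4-Dox (-1.42 ± 0.07) and rose in dbp2 (1.03 ± 0.07), all called. In dbp2 RPS14A rose (58.2 and 56.2 against 34.0 and 33.1 in WT) while RPS14B fell (2.24 and 2.17 against 2.63 and 2.66). RPS14 was the only one of the 24 pairs whose ratio moved by more than log2 1 in dbp2.

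RPS28A over RPS28B was 1.15 and 1.14 in xrn1 libraries, 4.32 and 3.80 in dbp2 libraries and 3.09 and 3.64 in WT libraries, and 6.48 and 6.38 in tet-MTR4-Dox against 4.16 and 4.19 in WT-Dox. It fell in xrn1 (log2 -1.55 ± 0.09 SE) and rose in tet-MTR4-Dox (0.62 ± 0.09). The rise of 0.27 in dbp2 lost its call when WT replicate 1 or dbp2 replicate 1 was left out (adjusted p 0.13 for each). RPS28A had 44.7 and 41.5 in xrn1 libraries, 75.5 and 66.0 in dbp2 libraries and 35.4 and 39.6 in WT, and its xrn1 difference was not called (log2 0.20), while RPS28B rose. The RPS28B feature is long for its coding bases and takes in reads of any other RNA counted to it.

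RPS21A over RPS21B was 3.05 and 2.99 in xrn1 libraries, 0.900 and 0.884 in dbp2 libraries and 1.38 and 1.40 in WT libraries, and 1.14 and 1.05 in tet-MTR4-Dox against 1.17 and 1.11 in WT-Dox. It rose in xrn1 (log2 1.12 ± 0.06 SE), fell in dbp2 (-0.64 ± 0.06) and was not called in tet-MTR4-Dox (-0.06). RPS24A over RPS24B fell in xrn1 (1.03 and 1.08 against 1.78 and 1.75 in WT, log2 -0.74 ± 0.04) and rose in dbp2 (0.36) and tet-MTR4-Dox (0.34). RPS23A over RPS23B rose in xrn1 (1.04 and 1.04 against 0.690 and 0.698 in WT, log2 0.59 ± 0.05) and was called in neither of the others (-0.02 and -0.10). RPS29A over RPS29B turned over in dbp2 (1.27 and 1.21 against 0.697 and 0.695 in WT, log2 0.83 ± 0.09), was not called in xrn1 (-0.10), and was 0.812 and 1.01 in tet-MTR4-Dox against 0.754 and 0.757 in WT-Dox (0.26, called, but not when 1 of 3 of these libraries was left out, adjusted p 0.090 to 0.097).

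**Figure D4:**
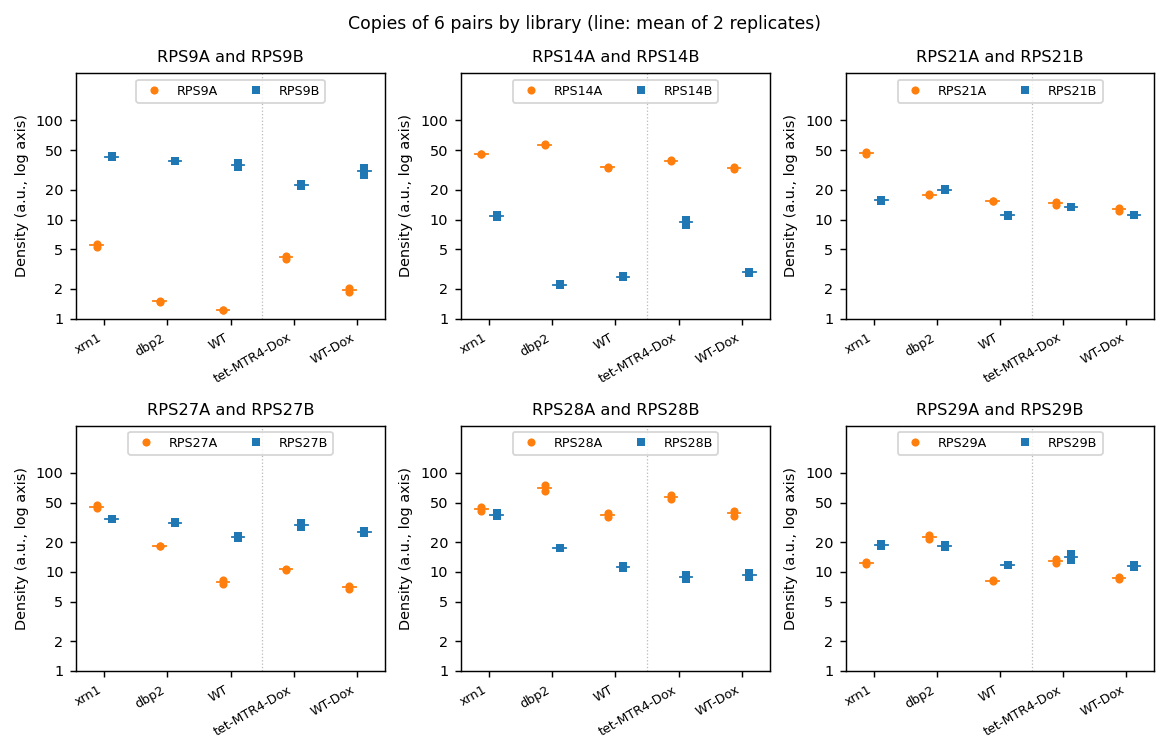
Density of both copies of the RPS9, RPS14, RPS21, RPS27, RPS28 and RPS29 pairs in each library on a log axis, with lines at the mean of 2 replicates. RPS27A lies above RPS27B in xrn1 and below it in the other groups, and RPS9A and RPS14B are raised in xrn1 and tet-MTR4-Dox.

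Smaller changes were seen in other pairs. In dbp2 the A over B ratio rose for RPS19 (log2 0.58), RPS26 (0.57), RPS0 (0.44), RPS16 (0.42), RPS25 (0.37), RPS7 (0.35) and RPS1 (0.11), and fell for RPS6 (-0.46) and RPS10 (-0.43). RPS1 lost this call when 1 library was left out. In tet-MTR4-Dox it rose for RPS19 (0.49), RPS16 (0.43), RPS26 (0.23), RPS25 (0.21) and RPS0 (0.20) and fell for RPS6 (-0.24), of which RPS25 lost its call without WT-Dox replicate 1 or tet-MTR4-Dox replicate 2. In xrn1 it fell for RPS26 (-0.43), RPS18 (-0.42), RPS0 (-0.36), RPS7 (-0.28) and RPS16 (-0.18) and rose for RPS1 (0.21). The xrn1 call of RPS16 was lost without any 1 of the 4 libraries.

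Pairs of near-identical copies gave these values. For RPS6, with 6 differing coding bases and 45.2% of the windows of RPS6A found elsewhere, A over B was 0.644 and 0.660 in dbp2 against 0.912 and 0.884 in WT, a called fall. For RPS4 the ratio was between 1.24 and 1.43 in every library and was called in no comparison (log2 0.08, 0.10 and 0.13). Without the 6 genes that have over 20% of their windows elsewhere the medians of the set per spike-in were log2 0.49 in xrn1, 0.29 in dbp2 and 0.01 in tet-MTR4-Dox.

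RPS22B (YLR367W) carries the gene of snR44, a small nucleolar RNA that guides pseudouridylation of ribosomal RNA. It lies in the intron of the coding sequence, 135 bases after that intron begins and 137 before it ends. No other RPS gene overlaps an annotated RefSeq gene within its own annotated span. Bases of the features beyond those spans were not searched. The snoRNA gene (chrXII:856710-856920, plus strand, RefSeq R64) is shown because its reads lie inside the RPS22B feature if introns were counted.
snR44: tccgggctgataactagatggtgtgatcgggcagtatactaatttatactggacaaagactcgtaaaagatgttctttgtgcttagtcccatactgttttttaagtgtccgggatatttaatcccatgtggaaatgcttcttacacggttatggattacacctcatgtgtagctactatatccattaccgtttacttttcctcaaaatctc
The reads of the snR44 feature came to 39.6% and 33.2% of those of RPS22B in xrn1 libraries, 56.3% and 51.5% in dbp2 libraries, 49.4% and 52.9% in WT libraries, 29.6% and 34.99% in tet-MTR4-Dox and 49.3% and 53.6% in WT-Dox. Their 95% Wilson intervals reach at most 1.10 percentage points to a side and cover counting error only. If all snR44 reads were also counted to RPS22B, they were a large share of that gene's density in every library.

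As deposited, RPS22B had 9.92 and 9.10 in xrn1 libraries, 16.2 and 14.4 in dbp2 libraries and 7.11 and 7.35 in WT libraries, and 12.4 and 11.0 in tet-MTR4-Dox against 5.39 and 5.81 in WT-Dox. After snR44 reads and bases were taken out, an alternative added after the data were seen, it had 6.97 and 7.08 in xrn1 libraries, 8.26 and 8.17 in dbp2 libraries and 4.19 and 4.03 in WT libraries, and 10.2 and 8.34 in tet-MTR4-Dox against 3.19 and 3.14 in WT-Dox. The groups were apart both ways. The log2 difference per spike-in became 0.77 ± 0.08 (SE) in xrn1, against 0.39 as deposited, 1.00 against 1.08 in dbp2, and 1.54 against 1.06 in tet-MTR4-Dox. The limma adjusted p-values were 3e-06, 8.2e-07 and 1.3e-08. On the relative scale the deposited values were -1.68 (called lower), 0.23 (called higher, adjusted p = 0.046) and 0.21 (not called, adjusted p = 0.058). The dbp2 call was lost without WT replicate 1, dbp2 replicate 1 or dbp2 replicate 2 (adjusted p 0.23, 0.21 and 0.059). The relative values without snR44 were -1.30, 0.15 (not called) and 0.69 (called higher, adjusted p = 4.9e-05). After rescaling on all features the deposited values in dbp2 and tet-MTR4-Dox turned to -0.02 and -0.66. snR44 itself was at log2 1.16 per spike-in in dbp2, 0.39 in tet-MTR4-Dox and -0.10, not called, in xrn1. RPS22A (YJL190C), the major copy, was at 0.45, 0.20 and -0.30 in xrn1, dbp2 and tet-MTR4-Dox. As deposited, RPS22A over RPS22B was 5.72 and 6.33 in xrn1 against 5.97 and 5.63 in WT, not called (log2 0.05, limma adjusted p = 0.64). The deposited ratio fell to 3.01 and 3.29 in dbp2 against the same WT libraries (log2 -0.88, limma adjusted p = 7.8e-05). In tet-MTR4-Dox it fell to 3.05 and 3.62 against 8.96 and 8.13 in WT-Dox (log2 -1.36, limma adjusted p = 7.7e-06). Without snR44 the ratio, which was not tested, was 8.14 and 8.14 in xrn1 libraries, 5.92 and 5.82 in dbp2 libraries and 10.1 and 10.3 in WT libraries, and 3.72 and 4.78 in tet-MTR4-Dox against 15.2 and 15.1 in WT-Dox.

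**Figure D5:**
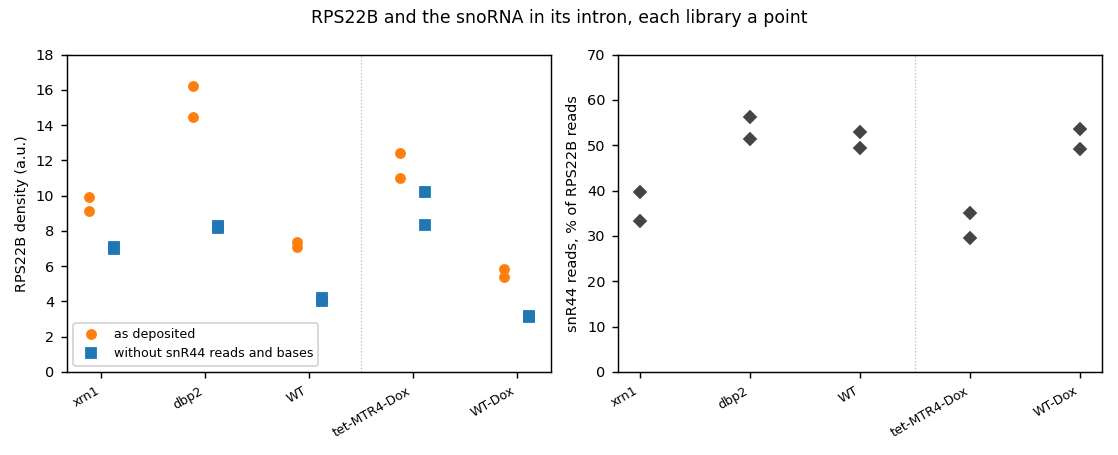
Left, density of RPS22B in each library as deposited and after removal of snR44 reads and bases; right, snR44 reads as a percent of RPS22B reads. RPS22B lies above its control in xrn1, dbp2 and tet-MTR4-Dox both ways, and the snR44 share is lowest in tet-MTR4-Dox and xrn1.

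Promoters were searched for ACCCNTACA, one form of the site of Rap1, on both strands in the 500 bases before the start codon. It occurs in 12 of the 56 RPS promoters (21.4%), in 22 of the 81 RPL and RPP promoters (27.2%) and in 1.80% of 6000 promoters of nuclear protein-coding genes, at 246 to 498 bases from the start codon in the RPS genes. The site is known to vary, so a promoter without these letters may still bind the factor. The first 300 of the 500 bases searched are shown for RPS2 (chrVII:277117-277416, plus strand), a single-copy gene with a match that was lower in tet-MTR4-Dox per spike-in, from RefSeq R64 with the match in capitals.
RPS2: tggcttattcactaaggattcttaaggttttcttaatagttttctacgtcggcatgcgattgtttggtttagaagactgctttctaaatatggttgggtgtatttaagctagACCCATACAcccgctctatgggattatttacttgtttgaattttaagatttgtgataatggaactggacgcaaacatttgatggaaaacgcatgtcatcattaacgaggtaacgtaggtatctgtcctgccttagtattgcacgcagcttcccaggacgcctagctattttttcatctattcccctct

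Genes that act on the subunit or on its genes were read beside the RPS genes. Of 20 assembly factors of the subunit, all 20 rose per spike-in in each comparison, with median log2 values of 1.22 in xrn1, 0.75 in dbp2 and 0.98 in tet-MTR4-Dox. Of all features 95.0%, 84.8% and 91.3% were called higher per spike-in in these comparisons, so such counts are near those of features at large. Relative to the median protein-coding gene, all 20 fell in xrn1 (median -0.84), 8 rose and 10 fell in dbp2 (-0.10), and 10 rose and 5 fell in tet-MTR4-Dox (0.13), against 35.5%, 43.4% and 62.2% of features called higher and 38.6%, 28.7% and 24.7% called lower. SLX9, an assembly factor, was at relative log2 1.03 in dbp2 and 0.63 in tet-MTR4-Dox, and TSR3, which modifies 18S rRNA, at 0.80 and 0.46. KRR1, a protein of the early assembly complex, was at -1.77 in xrn1. Of 10 regulators of ribosomal protein transcription, 10, 9 and 7 rose per spike-in in xrn1, dbp2 and tet-MTR4-Dox and none fell, near the share of all features in xrn1 and dbp2 and below it in tet-MTR4-Dox. On the relative scale 3 rose and 5 fell, 2 rose and 8 fell, and 2 rose and 7 fell. The co-repressor gene CRF1 led with relative log2 0.83, 1.43 and 2.19, from densities of 0.125 and 0.135 in tet-MTR4-Dox against 0.0143 and 0.0117 in WT-Dox. The co-activator gene IFH1 was at relative log2 -0.39, 0.62 and 0.22, and RAP1 at -1.17, -0.90 and -0.73.

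ASC1, whose protein sits on the head of the subunit, had 57.7 and 55.9 in xrn1 libraries, 19.6 and 18.999 in dbp2 libraries and 48.5 and 48.0 in WT libraries, and 16.8 and 16.7 in tet-MTR4-Dox against 49.6 and 47.6 in WT-Dox. It fell per spike-in in dbp2 (log2 -1.32, limma adjusted p = 1.5e-08) and tet-MTR4-Dox (-1.54, limma adjusted p = 1.2e-09), further than any of the 56 RPS genes, and rose in xrn1 (0.23). Of the 5 decay factors linked to RPS28B mRNA, all rose per spike-in in xrn1, from log2 1.60 for LSM1 to 2.44 for DHH1, and in tet-MTR4-Dox, where 95.0% and 91.3% of all features were called higher. In dbp2, where 84.8% of all features were called higher, EDC3, LSM1 and DCP2 rose, PAT1 fell (log2 -0.47) and DHH1 was not called. On the relative scale 1 of the 5 rose and 2 fell in xrn1, 1 rose and 4 fell in dbp2, and 0 rose and 4 fell in tet-MTR4-Dox. Of all features 35.5%, 43.4% and 62.2% were called higher on that scale, and 38.6%, 28.7% and 24.7% lower. These lists were drawn from general knowledge with earlier results of these data known, and are given as counts without a test of the list.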

How the data were processed

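RNA densities of 10 libraries were analysed, 2 biological replicates in each of 5 groups, grouped by the labels. The deposited values are a signal, a normalized density that the authors made; per the submitters' processing notes featureCounts 2.0.0, HISAT2 2.2.0, DESeq2 and Trim Galore were used with genome build R64, without a role for each. The values equal whole reads divided by feature length and a factor per library (100% of values within 0.001), and the factors follow the ERCC spike-in RNAs, as inferred from the values. Read length and the treatment of reads that map to several places are not given in the sources used here.

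Features under a mean density of 0.0344 (the 10th percentile) were left out, which kept 9666 of 10740 and all 56 RPS genes. The log2 of density plus 0.00626 was fitted with limma 3.58.1 (R 4.3.3; eBayes with a trend; 5 residual degrees of freedom pooled over all groups), and p-values were adjusted by Benjamini-Hochberg over all kept features, with calls at 0.05. The same fit followed a rescaling of each library on its median protein-coding gene. Ratios of paralogs were fitted in the same way, without the trend, over 409 pairs of reciprocal best matches among proteins translated from R64 (blastp 2.17.0, at least 40% identity over 80% of the longer protein). No protein table was given, so the plan foresaw values without a test here, and the test was added after the files were seen. The per-spike-in fit and the fit of pair ratios were run on simulated data in which few features or pairs changed, unlike these data. The relative fit was not simulated. Levels per exonic base leave the bases of introns in the coding sequence out of the length and keep all other bases of the feature. All 56 genes and 24 pairs enter every count and median, while 7 of the genes are not reported here by name and are left out of the figures.

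The RPS genes and the lists were chosen with earlier results of these data known. Named were, per comparison, the 4 RPS genes highest and lowest on the relative scale, the single-copy genes, the copies of called pairs, RPS9, RPS14, RPS22 and RPS28, and up to 4 called genes of each list. Alternatives were other pseudocounts and filters, voom on recovered reads, only the groups compared, each replicate left out, the replicate block and another rescaling.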

Additional observations from a re-analysis of the deposited data

How the results depend on the processing

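The counts of RPS genes called per spike-in and of pairs called stayed within 1.5 times their values under other pseudocounts, filters, voom weights, the 2 groups alone, and without any 1 library. Without 1 library the genes called higher per spike-in numbered 49 to 51 in xrn1, 30 to 36 in dbp2 and 14 to 17 in tet-MTR4-Dox, those called lower 0 to 0, 5 to 6 and 20 to 22, and pairs called 13 to 14, 16 to 19 and 12 to 16. Relative to the median protein-coding gene, those called lower numbered 53 to 53, 45 to 46 and 52 to 53, and those called higher 1 to 1, 2 to 4 and 2 to 3. The dbp2 count called higher was thus 2 without WT replicate 1, without dbp2 replicate 1 and without dbp2 replicate 2, against 4. Rescaling on all features left 1 gene called higher in dbp2 and 0 in tet-MTR4-Dox, since that scale lies lower for all genes, and it turned the relative log2 value of RPS9A to -0.15 in xrn1 and -0.61 in tet-MTR4-Dox, of RPS14B to -0.037 and RPS22B to -0.66 in tet-MTR4-Dox, and in dbp2 of RPS21B to -0.24, RPS28A to -0.18, RPS26A to -0.068 and RPS22B to -0.015.

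Leaving out 1 library turned the sign only of values near 0 that were not called, and the cause was not tested. On the relative scale these ranged over -0.088 to 0.017 for RPS14B in xrn1, and over -0.015 to 0.034 for RPS21B and -0.056 to 0.19 for RPS28A in dbp2. Per spike-in they ranged in dbp2 over -0.050 to 0.016 for RPS7A, and in tet-MTR4-Dox over -0.0094 to 0.15 for RPS16A, -0.077 to 0.065 for RPS25A, -0.080 to 0.10 for RPS26B and -0.15 to 3e-05 for RPS28B. For ratios they ranged over -0.052 to 0.0080 for RPS18 in dbp2, -0.060 to 0.042 for RPS18 and -0.12 to 0.0012 for RPS21 in tet-MTR4-Dox, and -0.019 to 0.13 for RPS22 in xrn1. A call was lost without at least 1 library in 23 of the values reported by name, 6 of them ratios of pairs.

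With the replicate number as a block (replicate block) 52 RPS genes were called higher per spike-in in xrn1, 37 in dbp2 and 17 in tet-MTR4-Dox, and 16, 19 and 14 pairs, and the relative value of RPS22B in dbp2 lost its call and 1 other value gained one. Deviations of same-numbered libraries correlated at -0.018, 0.008 and -0.007 over features in xrn1, dbp2 and tet-MTR4-Dox with their controls. No deviation shared by replicate number was thus seen across features. With 2 replicates a group this cannot show whether the samples were prepared in pairs. With 2 replicates a group the spread is pooled over all groups, and the lone library left when 1 is dropped is assumed to vary like the others. Depth did not limit the RPS genes, the sparsest of which had 1744 reads.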
